A study of Homo sapiens with 21 samples.

Results

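The genes described here are 44 genes whose products work in the G2 phase of the cell cycle and in mitosis. They were taken by name from the gene column of the count table, which lists 61268 features. The rule itself read no measured value, but the list of names was chosen with earlier results of these data known. All 44 were found, all 44 passed the filter on low counts that kept 19655 features for testing, and the lowest count of any of them in any library was 268. They lie on 17 chromosomes and were put into 8 groups by role: 6 cyclin, CDK1 and phosphatase genes, 4 mitotic kinase and chromosomal passenger genes, 8 genes of the spindle checkpoint, the anaphase-promoting complex (APC/C) and cohesion, 6 centromere and kinetochore genes, 2 chromosome structure genes, 7 kinesin motors, 8 spindle assembly and microtubule genes, and 3 central spindle and cytokinesis genes.

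RNA was sequenced from H9, a human embryonic stem cell line, carrying a transgene for wild-type GSX2 with a 2xFLAG tag behind the doxycycline-responsive TRE3G promoter. GSX2 is a homeobox factor that patterns the lateral ganglionic eminence (LGE), where striatal neurons are born in the embryonic forebrain. Cultures were taken through an LGE-like differentiation in Essential 6 medium, with LDN193189, SB431542 and XAV939 at the start, then LDN193189 and SB431542, and later IWP2 and Activin A. Induced cultures (Dox) received 100 ng/mL doxycycline for 12 h from day 10 and were collected 12, 24 or 48 h after day 10, so the 24 h cultures were 12 h and the 48 h cultures 36 h past its withdrawal. Uninduced cultures (NoDox) were collected at the same 3 times, and day 10 cultures gave the baseline. Each of the 7 groups had 3 libraries, and all 21 libraries carried the transgene. Doxycycline was never given to cells lacking the transgene, and drug and GSX2 effects cannot be told apart. The labels name 1 line without saying if it is a single clone, and do not say how replicates were grown. The p-values below therefore measure only the spread among these libraries, which may be technical.

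Total counts ran from 14439089 to 33842591 per library, of which the 44 genes took 0.372% to 0.684%. GSX2 had 277, 289.7 and 296 CPM in the Dox 12 h libraries and 10.6, 8.18 and 7.08 CPM in NoDox 12 h. The transgene, listed apart, had 745 to 951 CPM (counts relative to library size, scaled by TMM) in the Dox 12 h libraries, 13.6 to 25.2 CPM in Dox 24 h, 0.88 to 0.97 CPM in Dox 48 h, and at most 0.52 CPM in the uninduced libraries. The pluripotency genes POU5F1 and NANOG averaged under 0.2 CPM in every group, while the neural progenitor gene SOX2 averaged 1019.8 CPM at day 10. The LGE genes DLX2 and DLX5 averaged 27.5 and 6.58 CPM at day 10. Dox 12 h replicate 3 stood apart from the other Dox 12 h libraries (chi-square per degree of freedom of 28.0 and 17.5, against 5.83 between the other two), and day 10 replicate 1 from the other day 10 libraries (11.5 and 15.6, against 2.34).

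Cells that prepare for division make the proteins of mitosis in a wave: cyclin B with CDK1 starts mitosis, kinesins and microtubule proteins build the spindle, kinetochores attach chromosomes to it, and the checkpoint holds the APC/C in check until all are attached. The genes for these proteins are known to be repressed in resting cells by the DREAM complex and activated in dividing cells by B-MYB and FOXM1, through promoter elements called the CHR (cell cycle genes homology region) and, for the factor NF-Y, CCAAT boxes. In the developing forebrain these transcripts mark dividing progenitors and are lost as neurons leave the cell cycle.

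Promoters were examined because all 44 genes moved together in the 48 h comparison described below. RefSeq promoter sequences (GRCh38.p14) were matched by symbol for 38 of the 44 genes, with 48 listed starts, and AURKA, BUB3, TTK, TPX2, BIRC5 and UBE2C were not matched. The 250 bases before each start were searched on both strands for a CHR-type element, spelled TTTGAA or TTCGAA, and for CCAAT, and a gene counted where any listed start held the motif. A CHR-type element was present for 22 of 38 genes (57.9%), against 13.7% of the 12958 tested features with a promoter and 17.2% of all 27305 genes in the table. CCAAT was present for 31 of 38 (81.6%), against 40.7% of the tested features, and 2 or more copies for 20 (52.6%), against 14.6%. Both motifs at the same start were found for 20 genes (52.6%), against 5.49% of the tested features. In the nearest 100 bases, 17 genes (44.7%) held the CHR-type element, against 4.47%. The window held neither motif for CENPE, CKAP2, KIF2C, NDC80 and NUF2. A match describes letters in a window and is not evidence of binding. The genes were chosen as G2 and M phase genes, a class already known to carry these elements. Their high shares could therefore be foreseen from that choice, and a link between the motifs and the fall at 48 h was not tested.

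The promoters printed here belong to the 5 genes with the largest falls at 48 h among those holding both motifs at 1 start. Each is the 250 bases before the start, in the direction of transcription, with capitals marking CHR-type elements and CCAAT boxes on either strand (ATTGG and TTCAAA are their reverse complements). They lie at chr5:163460382-163460631 (HMMR, plus strand), chrX:70289854-70290103 (KIF4A, plus), chr1:197146670-197146919 (ASPM, minus), chr14:55191586-55191835 (DLGAP5, minus) and chr2:26785806-26786055 (CENPA, plus).
HMMR: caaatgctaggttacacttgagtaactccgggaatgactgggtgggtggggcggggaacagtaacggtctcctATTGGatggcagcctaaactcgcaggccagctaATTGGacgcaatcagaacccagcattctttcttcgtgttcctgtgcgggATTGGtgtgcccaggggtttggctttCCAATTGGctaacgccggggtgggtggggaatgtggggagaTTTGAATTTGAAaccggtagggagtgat
KIF4A: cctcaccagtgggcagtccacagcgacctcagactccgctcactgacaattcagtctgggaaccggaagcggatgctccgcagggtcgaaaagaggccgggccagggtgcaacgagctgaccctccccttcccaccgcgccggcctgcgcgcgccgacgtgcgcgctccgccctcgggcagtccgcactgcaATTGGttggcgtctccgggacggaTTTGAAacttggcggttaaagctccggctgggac
ASPM: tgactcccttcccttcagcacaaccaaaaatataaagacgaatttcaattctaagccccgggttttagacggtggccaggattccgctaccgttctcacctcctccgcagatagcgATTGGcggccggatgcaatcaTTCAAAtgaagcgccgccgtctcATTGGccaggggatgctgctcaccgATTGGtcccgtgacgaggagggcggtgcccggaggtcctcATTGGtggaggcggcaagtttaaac
DLGAP5: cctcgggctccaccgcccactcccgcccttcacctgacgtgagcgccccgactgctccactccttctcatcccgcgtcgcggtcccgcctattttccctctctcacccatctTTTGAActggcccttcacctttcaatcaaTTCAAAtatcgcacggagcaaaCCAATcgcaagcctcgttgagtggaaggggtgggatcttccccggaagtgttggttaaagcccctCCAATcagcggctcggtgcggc
CENPA: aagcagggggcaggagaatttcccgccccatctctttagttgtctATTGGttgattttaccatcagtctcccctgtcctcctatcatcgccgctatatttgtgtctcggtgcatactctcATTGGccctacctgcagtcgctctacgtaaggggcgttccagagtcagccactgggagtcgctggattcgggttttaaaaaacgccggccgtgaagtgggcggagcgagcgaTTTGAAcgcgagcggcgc

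In the HMMR promoter the CHR-type elements stand side by side, beginning 28 and 22 bases before the start, and 2 of its 5 CCAAT boxes, beginning 69 and 66 bases before the start, overlap on opposite strands. The KIF4A element begins 34 bases and the CENPA element 18 bases before the start, whereas the ASPM element begins 113 bases before it. The RefSeq starts of HMMR, CENPA, ASPM and DLGAP5 lie inside the longer gene spans that the count table gives, those of ASPM and DLGAP5 close to the edge. The counts of these genes therefore include transcripts that may begin elsewhere. KIF14 and CCNB1, whose falls at 48 h are also among the largest, held CCAAT but no CHR-type element in the window. Among the 38 matched genes, the median log2 fold change at 48 h was -0.67 for the 22 with a CHR-type element and -0.71 for the 16 without.

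The comparison of Dox with NoDox at 48 h asks how the genes stood 36 h after doxycycline was withdrawn. All 44 genes were lower in Dox cultures, the fall passing the test for each (edgeR quasi-likelihood F test, Benjamini-Hochberg adjusted p below 0.05 over all 19655 features), where 8.94% of all features tested were called lower and 9.23% higher. Their median log2 fold change was -0.67, against 0.01 for all features, and the range was -0.97 to -0.24. The libraries of the groups did not overlap for any of the 44, where 17.1% of all features lay wholly lower in Dox. Summed over the 44 genes, the level was 4175, 4608 and 4629.6 CPM in the Dox libraries, against 6935, 6994 and 6858 CPM in the NoDox libraries. In bulk RNA, fewer cells in G2 and mitosis and less of these transcripts per cell cannot be told apart.

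**Figure D1:**
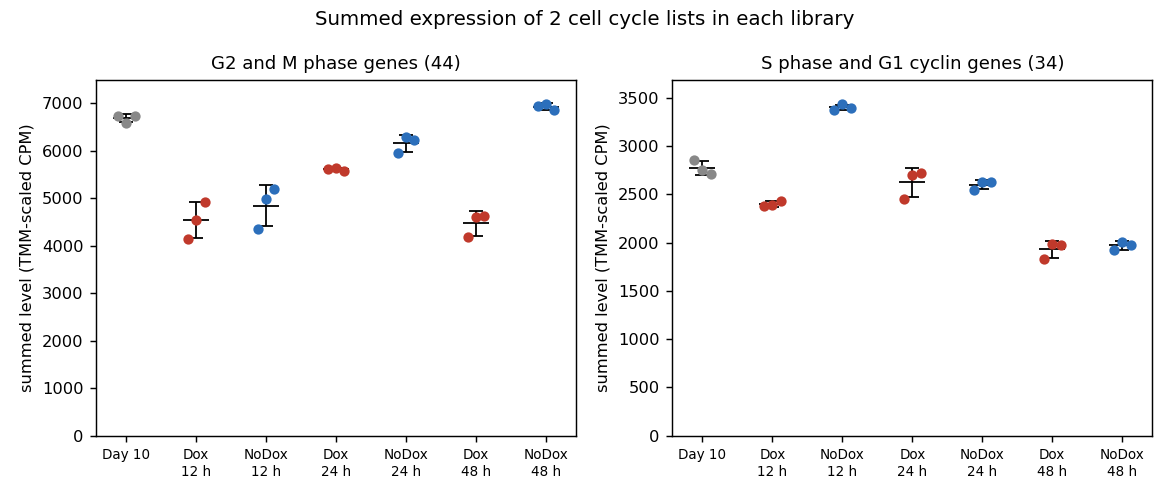
Summed TMM-scaled CPM of the 44 G2 and M phase genes (left) and of 34 S phase and G1 cyclin genes (right) in each of the 21 libraries; points are libraries, and the bar and whiskers are the mean ± SD of 3. The 44 genes sum to 4471 ± 257 CPM in Dox 48 h and 6929 ± 69 CPM in NoDox 48 h, while the S phase list sums to 1929 ± 87 and 1971 ± 42 CPM.

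Among the cyclin, CDK1 and phosphatase genes, all 6 fell at 48 h, with a median of -0.64. CCNB1, the cyclin B that activates CDK1 at mitotic entry, had 102, 115 and 112 CPM in Dox and 204, 202 and 192 CPM in NoDox (log2 fold change -0.86 ± 0.08, adjusted p = 1.45e-08). The Dox libraries thus stood at 55.0% of the NoDox level, the largest fall of this group. CDK1, the kinase that drives mitosis, had 106, 119 and 112 CPM in Dox and 182, 194 and 174 CPM in NoDox (-0.70 ± 0.09). CCNB2 (-0.67 ± 0.09) and CCNA2 (-0.62 ± 0.06), which encodes the cyclin of S and G2 phase, also fell. CDC25B, a phosphatase that removes the inhibitory phosphates from CDK1, had the smallest fall of the 44, with 130.1, 119.7 and 122 CPM in Dox and 157, 139 and 144 CPM in NoDox (-0.24 ± 0.06, adjusted p = 0.00665). CDC25C, its relative, fell by 0.45 ± 0.09 on the log2 scale. An unstranded count of CDC25C would include reads of the overlapping gene FAM53C on the opposite strand, whose mean count was 387% of that of CDC25C.

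All 4 mitotic kinase and chromosomal passenger genes fell at 48 h, with a median of -0.66. PLK1, a kinase of mitotic entry and centrosome maturation, had 105, 108 and 104 CPM in Dox, against 169, 169 and 187 CPM in NoDox (-0.73 ± 0.07, adjusted p = 3.10e-08). The Dox values of PLK1 were tightly grouped and all lay far below the NoDox values. AURKA, the spindle pole kinase, changed by -0.70 ± 0.09. AURKB (-0.52 ± 0.08) and BIRC5 (-0.61 ± 0.07) encode members of the chromosomal passenger complex, the kinase and survivin.

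The 8 checkpoint, APC/C and cohesion genes all fell at 48 h, with a median of -0.70. BUB1B, which encodes the checkpoint kinase-like protein BUBR1, had 56.7, 67.1 and 71.0 CPM in Dox and 108, 109.7 and 109 CPM in NoDox (-0.75 ± 0.07, adjusted p = 2.68e-08). CDC20, the APC/C activator that the checkpoint restrains, had 98.4, 98.0 and 93.4 CPM in Dox and 166, 150.2 and 156 CPM in NoDox (-0.70 ± 0.07). BUB1, PTTG1 (securin), SGO1 (shugoshin) and UBE2C (the ubiquitin-conjugating enzyme of the APC/C) changed by -0.72 to -0.66, and the checkpoint kinase TTK by -0.53 ± 0.08. BUB3, which recruits BUB1 and BUBR1 to kinetochores, stood out within the group with 108, 116 and 113 CPM in Dox and 143, 139 and 132 CPM in NoDox (-0.30 ± 0.09, adjusted p = 0.0153). Without NoDox 48 h replicate 1, NoDox 48 h replicate 2 or Dox 48 h replicate 1 the fall of BUB3 no longer passed the test, and without NoDox 48 h replicate 1 that of CDC25B did not either.

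All 6 centromere and kinetochore genes fell, with the group's median at -0.76. NUF2, a subunit of the NDC80 complex that binds microtubules, had 46.0, 50.7 and 52.0 CPM in Dox, against 81.2, 93.9 and 88.8 CPM in NoDox (-0.83 ± 0.11, adjusted p = 1.63e-05). NDC80, its partner in that complex, changed by -0.64 ± 0.12. CENPF (-0.77 ± 0.08), the kinetochore motor CENPE (-0.75 ± 0.08) and the centromeric histone variant CENPA (-0.76 ± 0.10) lay between -0.77 and -0.75. HJURP, the chaperone that deposits CENPA, fell less (-0.44 ± 0.07). CENPA shares exonic bases with SLC35F6 on the same strand, so its count is uncertain.

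MKI67 and TOP2A, the chromosome structure genes, both fell. MKI67, whose product Ki-67 coats mitotic chromosomes and is the common stain for dividing cells, had 111, 149 and 159 CPM in Dox and 228, 237 and 238 CPM in NoDox (-0.75 ± 0.17, adjusted p = 0.00674). TOP2A, the topoisomerase that untangles sister chromosomes, had 635, 728 and 723 CPM in Dox and 1105, 1059 and 1021 CPM in NoDox (-0.61 ± 0.08).

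All 7 kinesin motors fell, with a median of -0.65. KIF14, a motor of cytokinesis, had the largest fall of the 44, with 26.2, 28.2 and 28.4 CPM in Dox and 51.8, 54.3 and 55.8 CPM in NoDox (-0.97 ± 0.10, adjusted p = 2.92e-08), which placed Dox at 51.2% of NoDox. KIF4A, a chromosome-bound motor that acts with PRC1 at the spindle midzone, had 38.7, 42.7 and 45.8 CPM in Dox and 79.5, 77.2 and 77.3 CPM in NoDox (-0.88 ± 0.07, adjusted p = 6.91e-10). KIF20B changed by -0.74, KIF20A by -0.65, the spindle bipolarity motor KIF11 by -0.54 and the microtubule depolymerase KIF2C by -0.47. KIF23, a subunit of centralspindlin, fell least of the 7 (-0.37 ± 0.07).

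Of the 8 spindle assembly and microtubule genes, all fell, with a median of -0.67. HMMR, a microtubule-binding protein of spindle poles, had 22.5, 24.5 and 23.5 CPM in Dox and 44.8, 46.1 and 43.6 CPM in NoDox (-0.93 ± 0.07, adjusted p = 3.14e-10). ASPM, a spindle pole protein whose loss causes microcephaly in humans, had 61.2, 65.0 and 69.9 CPM in Dox and 114, 117 and 117 CPM in NoDox (-0.83 ± 0.10, adjusted p = 1.81e-06). DLGAP5, which bundles microtubules at the kinetochore, changed by -0.79 ± 0.07, while CKAP2L, GTSE1, NUSAP1 and CKAP2 lay between -0.67 and -0.65, and the spindle assembly factor TPX2 at -0.54. The counts of NUSAP1 are uncertain, since it shares exonic bases on the same strand with OIP5-AS1, whose mean count was 117% of its own.

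The 3 central spindle and cytokinesis genes had the median nearest 0 of the 8 groups, -0.52. ECT2, the exchange factor that activates RhoA at the cleavage furrow, had 101, 101 and 109 CPM in Dox, against 149, 154 and 152 CPM in NoDox (-0.55 ± 0.06, adjusted p = 1.01e-07). PRC1, the bundler of midzone microtubules, changed by -0.52 ± 0.06 and the furrow protein ANLN by -0.40 ± 0.09. PRC1 shares exonic bases on the same strand with an unnamed feature whose mean count was 111% of its own.

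**Figure D2:**
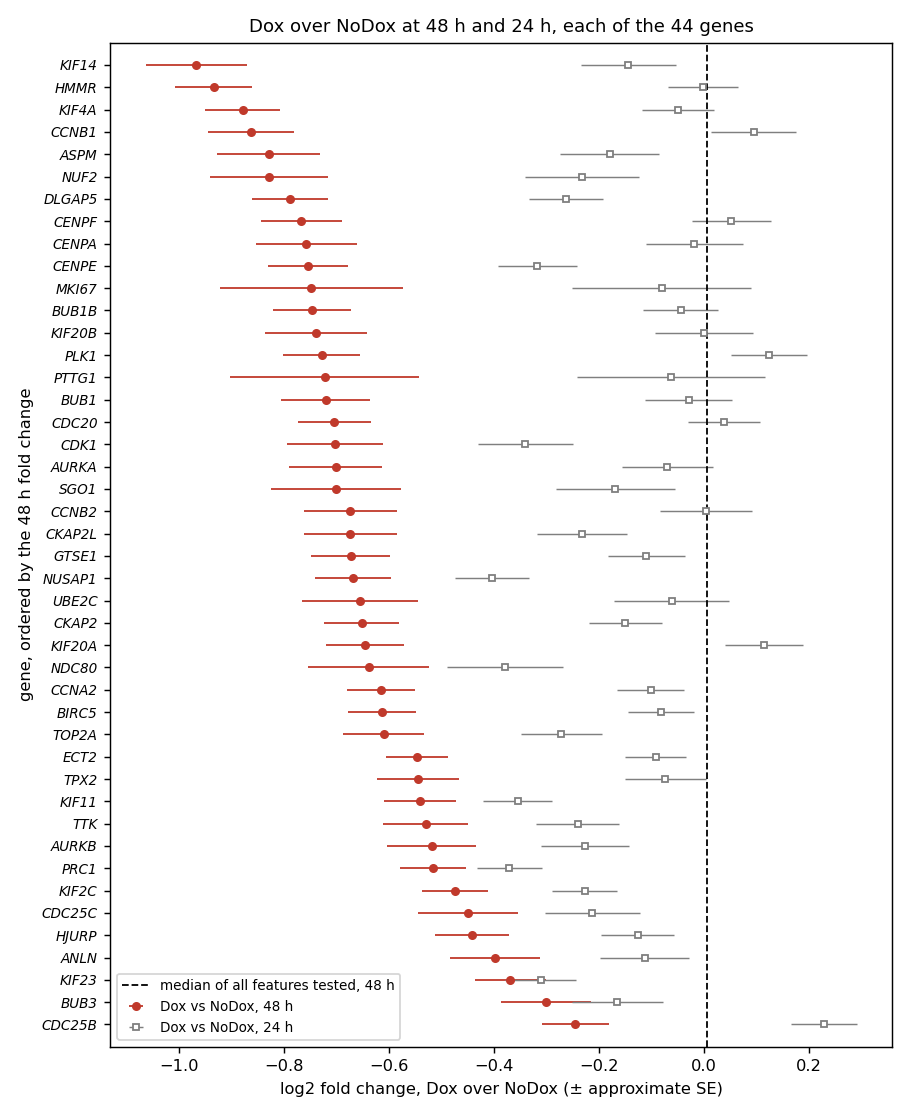
Log2 fold change of Dox over NoDox for each of the 44 genes, with its approximate standard error, at 48 h (filled circles) and at 24 h (open squares); the dashed line is the median of all features at 48 h, 0.01. At 48 h every gene lies left of that line, KIF14 farthest at -0.97 and CDC25B nearest at -0.24, while the 24 h values run from -0.40 to 0.23.

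During the pulse, at 12 h, few of the 44 genes differed between Dox and NoDox. Higher calls were 2 of 44 and lower calls 6 of 44, where 39.7% of all features were called, 19.8% higher and 19.9% lower, and the median was -0.08, against 0.01 for all features. In 1 gene the Dox libraries lay wholly above and in 6 wholly below the NoDox libraries, against 23.7% and 23.1% of all features. CCNA2 had 72.2, 79.2 and 87.7 CPM in Dox and 94.3, 108 and 111 CPM in NoDox (-0.39 ± 0.06, adjusted p = 1.41e-05), and its groups did not overlap. Exons of CCNA2 overlap EXOSC9 on the opposite strand, whose mean count was 38.4% of its own, and those of KIF20A overlap BRD8, at 118%. CENPF (-0.32 ± 0.08), BUB1B (-0.31 ± 0.07), KIF20A (-0.28 ± 0.08), ASPM (-0.27 ± 0.10) and BIRC5 (-0.17 ± 0.06) were also called lower. CDC25B rose, with 83.8, 85.8 and 87.2 CPM in Dox and 58.5, 66.6 and 67.7 CPM in NoDox (0.41 ± 0.06, adjusted p = 6.70e-06). KIF20B, with 60.9, 68.0 and 87.5 CPM in Dox and 54.6, 64.8 and 59.0 CPM in NoDox, was called higher (0.27 ± 0.09, adjusted p = 0.0229), but its groups overlapped.

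The 12 h counts depended on the scaling and on single libraries. With library totals in place of TMM the median of all features moved to 0.19, the share of calls that were higher went to 76.8% from 49.9%, and the 44 genes gave 6 higher and 1 lower, with a median of 0.10. Relative to all features the genes' median was then still lower. The summed level followed: 4152, 4549 and 4919.5 CPM in Dox and 4358, 4979 and 5187 CPM in NoDox with TMM, but means of 5149 CPM in Dox and 4855 CPM in NoDox with library totals. Without Dox 12 h replicate 3 the genes called lower were 17, and without NoDox 12 h replicate 1 they were 15.

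At 24 h, 12 h past withdrawal, 1 gene was higher and 13 were lower in Dox, where 17% of all features were called higher and 16.9% lower. The median was -0.11, and 27 of the 44 lay wholly lower in Dox, against 26.1% of all features, with 4 wholly higher, against 25.9%. CDK1 had 111, 121 and 114 CPM in Dox and 140.2, 156 and 141 CPM in NoDox (-0.34 ± 0.09, adjusted p = 0.00478). KIF11 had 96.1, 96.5 and 91.1 CPM in Dox and 121 CPM in each NoDox library (-0.35 ± 0.07, adjusted p = 9.65e-05). NDC80 had 42.5, 43.2 and 39.2 CPM in Dox and 52.0, 54.9 and 55.7 CPM in NoDox (-0.38 ± 0.11, adjusted p = 0.00972). In each of these genes the Dox libraries lay wholly below the NoDox libraries. NUSAP1 (-0.40 ± 0.07), PRC1 (-0.37 ± 0.06), CENPE (-0.32 ± 0.07), KIF23 (-0.31 ± 0.07), TOP2A (-0.27 ± 0.08), DLGAP5 (-0.26 ± 0.07) and TTK (-0.24 ± 0.08) were lower as well, with AURKB, KIF2C and CKAP2L at -0.23. CDC25B was again the gene called higher, with 118, 114 and 119.9 CPM in Dox and 99.8, 98.5 and 102 CPM in NoDox (0.23 ± 0.06, adjusted p = 0.00531). When only the 24 h libraries were fitted, 3 genes were higher and 21 lower. Calls over all features rose as well in that fit, to 4293 higher and 4172 lower from 3349 and 3316.

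**Figure D3:**
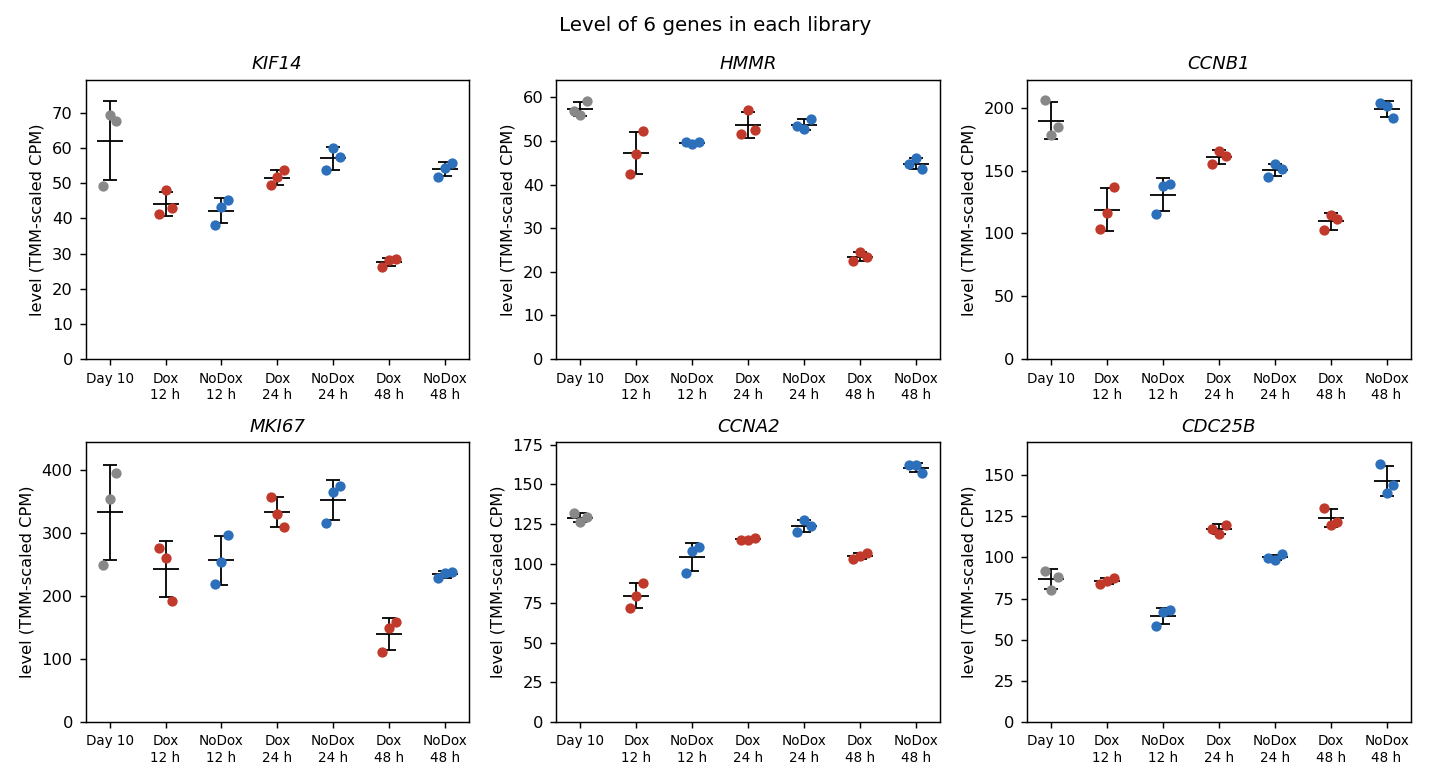
Level of KIF14, HMMR, CCNB1, MKI67, CCNA2 and CDC25B in TMM-scaled CPM in each library; points are libraries, and the bar and whiskers are the mean ± SD of 3. CCNB1 averages 109.7 CPM in Dox 48 h and 199 CPM in NoDox 48 h, and CDC25B averages 85.6 CPM in Dox 12 h and 64.3 CPM in NoDox 12 h.

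The change of the Dox effect between times was tested as an interaction. From 24 to 48 h the effect became more negative for 32 of the 44 genes and more positive for 0, where 25.8% of all features were called, 13.1% more negative and 12.7% more positive. CCNB1 changed most (-0.96 ± 0.11, adjusted p = 4.61e-07), followed by HMMR (-0.93 ± 0.10), PLK1 (-0.85 ± 0.10), KIF4A (-0.83 ± 0.10) and KIF14 (-0.82 ± 0.13). The 24 h effects of CCNB1 and PLK1 were 0.10 ± 0.08 and 0.12 ± 0.07, and neither passed the test. The 12 genes without a passing change were CDC25C, AURKB, BUB3, TTK, PTTG1, NDC80, MKI67, KIF11, KIF23, NUSAP1, PRC1 and ANLN. Of these, KIF23 had nearly the same value at both times, -0.31 at 24 h and -0.37 at 48 h, while the differences for MKI67 and PTTG1 were large but imprecise (-0.67 ± 0.24 and -0.66 ± 0.25). From 12 to 24 h the effect became more positive for 4 genes and more negative for 4, where 16.1% and 14.8% of all features did so. KIF20A (0.39 ± 0.11), CENPF (0.37 ± 0.11), CCNA2 (0.29 ± 0.09) and BUB1B (0.26 ± 0.10) moved up, and CENPE (-0.48 ± 0.11), NDC80 (-0.41 ± 0.16), KIF23 (-0.30 ± 0.10) and PRC1 (-0.24 ± 0.09) moved down. With library totals these counts became 0 and 19, and the median of all features moved to -0.21.

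In uninduced cultures the 44 genes dipped 12 h after day 10. Lower calls were 40 of 44 and higher calls 0, where 16.3% of all features were called lower and 15.5% higher, and the median was -0.48. Wholly lower libraries were found for 41 genes, against 22.5% of all features. NUF2 had 46.3, 53.1 and 47.8 CPM in NoDox 12 h, against 89.9, 84.9 and 84.1 CPM at day 10 (-0.81 ± 0.11, adjusted p = 7.74e-06). CENPE had 70.8, 82.4 and 80.6 CPM in NoDox 12 h, against 130.4, 131 and 146 CPM at day 10 (-0.80 ± 0.08, adjusted p = 4.62e-09). PTTG1 (-0.73 ± 0.18), KIF20A (-0.71 ± 0.08) and KIF2C (-0.66 ± 0.06) followed. BUB1B (-0.13 ± 0.07), SGO1 (-0.25 ± 0.11), CENPF (-0.19 ± 0.08) and MKI67 (-0.38 ± 0.17) did not pass.

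At 24 h the uninduced cultures had 1 gene higher and 6 lower than at day 10, where 8.84% and 8.47% of all features were called, and a median of -0.13. The NoDox 24 h libraries lay wholly lower for 23 genes and wholly higher for 1, against 18.5% and 17.5% of all features. The 6 were KIF20B (-0.41 ± 0.09), ECT2 (-0.34 ± 0.06), CCNB1 (-0.33 ± 0.08), CDC20 (-0.26 ± 0.07), CCNB2 (-0.26 ± 0.09) and CENPE (-0.26). The call of CCNB2 was lost with library totals (adjusted p = 0.0517), with limma (adjusted p = 0.0518), without day 10 replicate 1 and without each NoDox 24 h replicate. At 48 h 12 genes were higher and 11 lower than at day 10, near the shares of all features, 21.4% and 20.2%. The median was 0.04. CDC25B had 157, 139 and 144 CPM in NoDox 48 h, against 91.9, 80.2 and 88.3 CPM at day 10 (0.76 ± 0.06, adjusted p = 2.84e-10). CCNB2 (0.53 ± 0.09), PTTG1 (0.52 ± 0.18), KIF20A (0.33 ± 0.07), KIF2C (0.33 ± 0.06), CCNA2, PLK1, UBE2C, AURKA, CDC20, HJURP and KIF23 were higher too. MKI67 (-0.51 ± 0.17), ASPM (-0.43 ± 0.10), CENPF (-0.38 ± 0.08), HMMR (-0.36 ± 0.07) and SGO1 (-0.29 ± 0.12) led the lower genes. Without the low-count filter PTTG1 and MKI67 no longer passed (adjusted p = 0.0676 and 0.0719), nor did they without day 10 replicate 2 or 3 or NoDox 48 h replicate 1 or 2, and MKI67 did not without NoDox 48 h replicate 3. These lower calls fell to 5 without NoDox 48 h replicate 1, 6 without replicate 3 and 7 without replicate 2. The Dox and uninduced comparisons share their NoDox libraries at each time, and the uninduced comparisons share the day 10 libraries.

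**Figure D4:**
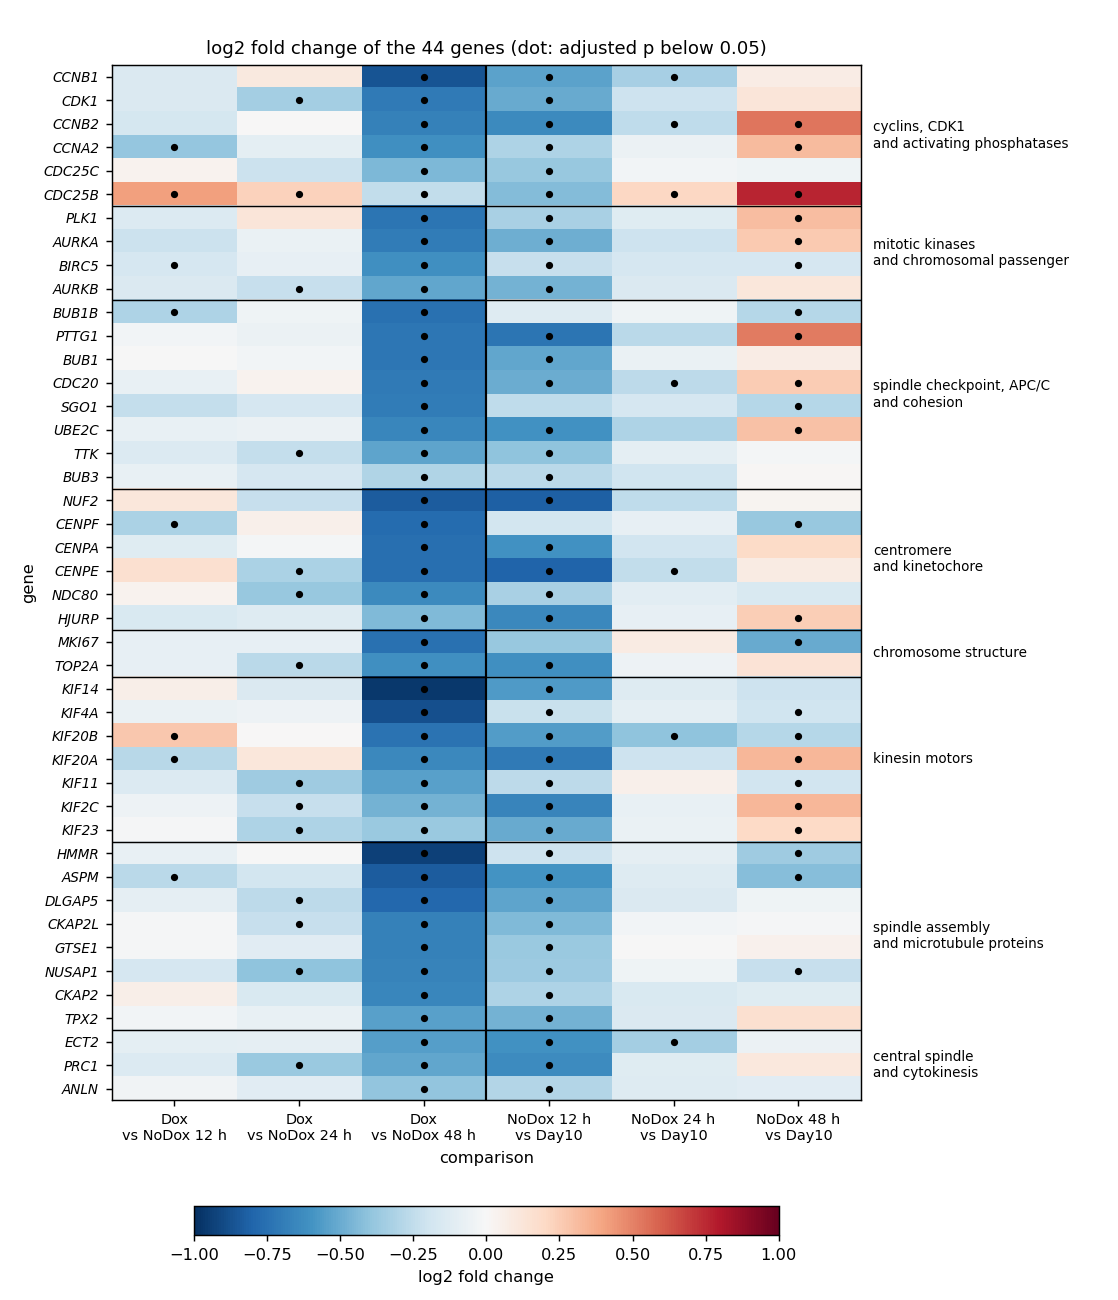
Log2 fold change of the 44 genes (rows, grouped by role and ordered by the 48 h value) in the 3 Dox against NoDox comparisons and the 3 comparisons of NoDox with day 10 (columns); a dot marks adjusted p below 0.05. The Dox against NoDox column at 48 h has 44 dots, all lower, and the column of NoDox 12 h against day 10 has 40.

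Over the 7 group means, the highest level was in NoDox 48 h for 24 genes, at day 10 for 18 and in NoDox 24 h for 2. The lowest was in Dox 48 h for 22 genes, in Dox 12 h for 18, in NoDox 12 h for 3 and in Dox 24 h for 1. The span between the highest and lowest group was smallest for BUB3 (1.30-fold) and largest for CCNB2 (2.54-fold) and MKI67 (2.52-fold). Per kilobase of exon, TOP2A had the highest mean level over the groups (127 CPM per kb), then TPX2 (100.3), UBE2C (91.1), PTTG1 (82.8) and CCNB1 (62.2), and the lowest levels per kilobase were those of CDC25C (7.88), SGO1 (7.01) and KIF14 (6.63).

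Genes of the same pathway outside the 44 were read from 6 lists, beside which stand the shares of all features called in either direction, 39.7% at 12 h, 33.9% at 24 h and 18.2% at 48 h. Of 25 other checkpoint and kinetochore genes, 0 were higher and 18 lower in Dox at 48 h, with a median of -0.36. SPC25, a subunit of the NDC80 complex beside NUF2, averaged 8.96 ± 0.69 CPM in Dox and 18.1 ± 1.84 CPM in NoDox (-1.01 ± 0.12), SGO2, a second shugoshin, changed by -0.94 ± 0.10, and the kinetochore scaffold KNL1 by -0.83 ± 0.11. Of 15 condensin and cohesin subunits, 8 were lower and 0 higher. The condensin I subunits NCAPH (-1.03 ± 0.09) and NCAPG (-0.66 ± 0.07) were among the 8, as were the condensin II subunit NCAPG2 (-0.50 ± 0.09) and SMC4 (-0.54 ± 0.07), which both condensins share. This list was lower more widely at 24 h, with 12 of 15 lower and 0 higher and a median of -0.27, when 13 of the 44 genes were lower. SMC4 changed by -0.46 ± 0.07 and NCAPH by -0.25 ± 0.08 at 24 h. Of 17 APC/C genes, 1 was higher and 2 were lower, a share near that of all features. The scaffold subunit ANAPC2 rose (0.34 ± 0.06), while UBE2S, the ubiquitin chain-elongating enzyme, fell (-0.86 ± 0.08), with 148 ± 13.4 CPM in Dox and 269 ± 4.59 CPM in NoDox. The activator FZR1 also fell (-0.22 ± 0.06).

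Of 16 regulators of this gene program, 1 was higher and 3 were lower at 48 h, against 9.23% and 8.94% of all features, and 1 was higher and 7 lower at both 12 h and 24 h. FOXM1, an activator of G2 and M phase genes, averaged 96.4 ± 4.54 CPM in Dox and 133 ± 3.37 CPM in NoDox (-0.46 ± 0.07, adjusted p = 1.18e-05). It was also lower at 12 h (-0.24 ± 0.07, adjusted p = 0.00447), a call lost with library totals (-0.06, adjusted p = 0.516), and at 24 h (-0.23 ± 0.07, adjusted p = 0.00733). MYBL2, which encodes B-MYB, changed by -0.29 ± 0.07 and the E2F partner TFDP1 by -0.39 ± 0.07, while TFDP2 rose (0.23 ± 0.06). The rise of TFDP2 no longer passed with library totals (0.15, adjusted p = 0.0626) or without Dox 48 h replicate 1. MYBL2 was also lower at 24 h (-0.26 ± 0.07). The MuvB genes LIN9, LIN37, LIN52 and LIN54 and the pocket protein genes RBL1 and RBL2 did not pass (-0.22 to 0.06). Of 12 inhibitors and brakes of mitotic entry, 2 were lower and 0 higher at 48 h, near the share of all features, WEE1 (-0.25 ± 0.08), which phosphorylates CDK1 at its inhibitory site, and CHEK2 (-0.49 ± 0.12). The call of WEE1 was lost without NoDox 48 h replicate 2, NoDox 48 h replicate 3 or Dox 48 h replicate 1 (adjusted p = 0.119, 0.118 and 0.152). The CDK inhibitor genes CDKN1A, CDKN1B and CDKN1C did not pass, with -0.23 ± 0.09, 0.15 ± 0.08 and -0.11 ± 0.08, and neither did SFN (-1.04 ± 0.45), which encodes 14-3-3 sigma. At 12 h, 8 of the 12 were lower and 1 higher, and the list summed to 558 ± 35.5 CPM in Dox and 965 ± 33.5 CPM in NoDox. CDKN1C (-1.51 ± 0.09), WEE1 (-0.93 ± 0.08), CDKN1A (-0.75 ± 0.09) and CDKN1B (-0.35 ± 0.08) were among the lower genes. At 24 h CDKN1B (-0.58 ± 0.08) and CDKN1C (-0.26 ± 0.08) were among those still lower, whereas SFN was called higher. The level of SFN was low, with means of 1.26 CPM in Dox and 1.04 CPM in NoDox at 12 h. Its Dox effect was more negative at 48 h than at 24 h (difference -2.12 ± 0.56).

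The S phase and G1 cyclin list had other counts at each time. Of its 34 genes, 2 were higher and 27 lower in Dox at 12 h (median -0.40), 5 higher and 18 lower at 24 h (-0.20), and 2 higher and 10 lower at 48 h (-0.12). Its summed level was 2399 ± 27 CPM in Dox and 3401 ± 27 CPM in NoDox at 12 h. At 48 h the sums were 1929 ± 87 CPM in Dox and 1971 ± 42 CPM in NoDox, a difference within 1 SD of the Dox libraries. MCM7, a subunit of the replicative helicase, averaged 165 ± 13.2 CPM in Dox and 332 ± 6.43 CPM in NoDox at 12 h (-1.01 ± 0.06), against 208 ± 4.21 and 204 ± 1.53 CPM at 48 h (0.03 ± 0.06). In uninduced cultures 12 h after day 10, when 40 of the 44 genes were lower, 23 of the 34 S phase and G1 genes were higher and 3 lower. Of all features tested, 15.5% were called higher and 16.3% lower in that comparison.

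**Figure D5:**
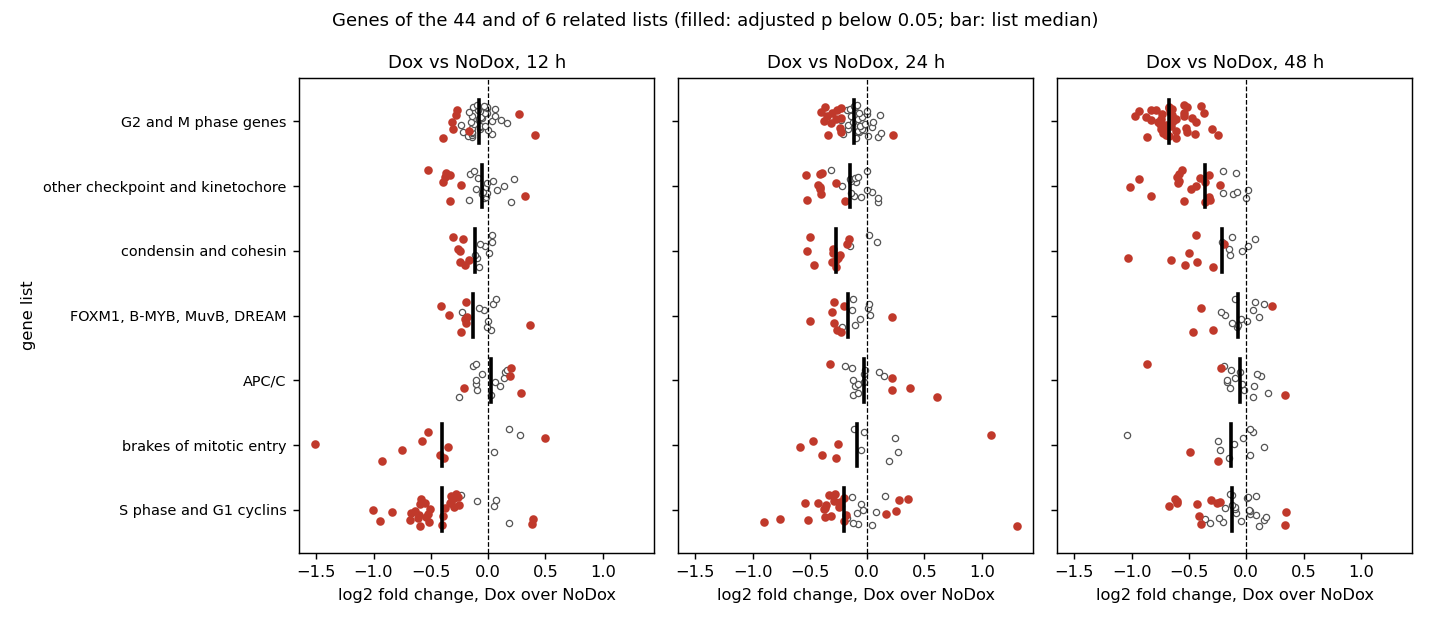
Log2 fold change of Dox over NoDox at 12, 24 and 48 h for the 44 genes and for the genes of 6 related lists; each point is a gene, filled where adjusted p is below 0.05, and black bars are list medians. The median of the 44 genes is -0.08, -0.11 and -0.67 at the 3 times, and that of the S phase and G1 cyclin list is -0.40, -0.20 and -0.12.

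Markers of cell types moved beside these changes, and their part in the results was not tested. The shares of all features called were those given for the pathway lists. At 48 h, 4 of 10 neural progenitor markers were higher in Dox and 0 lower, and their summed level ran from 10814 to 11393 CPM in Dox and from 9221 to 9917 CPM in NoDox. Of 14 markers of postmitotic neurons, 2 were higher (DCX 0.55 ± 0.13 and NEFM 0.28 ± 0.09) and 2 lower (SYT4 and INA), with sums from 2052 to 2372 CPM in Dox and from 1925 to 2363 CPM in NoDox. Of 10 LGE markers, 3 were higher (DLX1, DLX2 and GAD1) and 4 lower (GSX1, GSX2, MEIS2 and ETV1), with sums from 516 to 557 CPM in Dox and from 389 to 471 CPM in NoDox. At 12 h all 10 neural progenitor markers were lower in Dox, with sums from 3129 to 3408 CPM in Dox and from 7794 to 7856 CPM in NoDox, and of 14 neuron markers 2 were higher and 11 lower, with sums from 856 to 977 CPM in Dox and from 1327 to 1667 CPM in NoDox. At 24 h, 10 of 14 neuron markers were lower and 2 higher, with sums from 1271 to 1507 CPM in Dox and from 1753 to 2117 CPM in NoDox, and 4 of 10 progenitor markers were lower and 2 higher, with sums from 6962 to 7326 CPM in Dox and from 7267 to 7348 CPM in NoDox. The mesenchymal and endothelial sums at 24 h ran from 955 to 1385 CPM in Dox and from 435 to 499.6 CPM in NoDox, with 2 of 8 higher, COL1A1 (1.42 ± 0.17) and KDR (4.21 ± 0.23), and 3 lower. LGE markers at 24 h were higher for 2 and lower for 6 of 10, with sums from 475 to 587 CPM in Dox and from 440.0 to 490.4 CPM in NoDox, and pluripotency markers higher for 3 and lower for 1 of 5, with sums from 232 to 248 CPM in Dox and from 189 to 195 CPM in NoDox. Of 5 tested pluripotency markers, 0 were called in either direction at 48 h, with sums from 209 to 213 CPM in Dox and from 216 to 221 CPM in NoDox, most of it DPPA4 and LIN28A. Of 8 tested mesenchymal and endothelial markers, 1 was higher and 3 lower at 48 h, with sums from 879 to 1163 CPM in Dox and from 848 to 1057 CPM in NoDox, most of it COL1A1, and the endothelial marker PECAM1 averaged 0.13 CPM in Dox and 0.42 CPM in NoDox.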

How the data were processed

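The authors deposited whole-number counts of reads per gene on hg38; STAR 2.7.9 and Subread 2.0.3 are among the tools that the submitters' processing notes list. No label, note or header used here names the annotation or whether counting used strand. The kit was directional and RNA was poly-A selected, per the labels. The deposited normalized counts, a signal unit, equal each count over 1 factor per sample, and the notes also name DESeq2.

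Counts were fitted with edgeR 4.0.16 (R 4.3.3), with TMM scaling, filterByExpr and the robust quasi-likelihood F test over all 7 groups (14 residual degrees of freedom, biological coefficient of variation 7.24%). Tested features held 99.9% of the counts. P-values were adjusted by Benjamini-Hochberg over 19655 features, for 8 comparisons. The ± of a log2 fold change is the absolute value over the square root of F, an approximate standard error, and other ± are SD of 3 libraries. Levels per kilobase use the table's exon lengths. The fit was tested on simulated counts. No replicate pair agreed within sampling noise (chi-square per degree of freedom 1.87 to 28.0), so none was merged.

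The 44 genes and all lists were chosen with earlier results of these data known. Genes were named as those with the largest changes in each comparison, 1 per role, and the largest changes of each related list; other members are given with their values. Alternatives used DESeq2 1.42.0 (size factors or its Wald test), library totals, no filter, no robust moderation, only the groups compared, limma 3.58.1 on log2 of the deposited normalized count + 1, a replicate block, and each replicate left out.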

Additional observations from a re-analysis of the deposited data

Results flagged for a closer look

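The Dox effect differed between times for several of the 44 genes, by the interaction test of edgeR (Benjamini-Hochberg adjusted p below 0.05). Between 24 h and 12 h it was more positive for 4 genes and more negative for 4, where 16.1% and 14.8% of all features were called, so the genes changed no more often than features in general. Between 48 h and 24 h it was more negative for 32, where 13.1% of all features were. The differences between 24 h and 12 h were 0.39 for KIF20A, 0.37 for CENPF, 0.29 for CCNA2 and 0.26 for BUB1B, and -0.48 for CENPE, -0.41 for NDC80, -0.30 for KIF23 and -0.24 for PRC1. With library totals the differences of KIF20A, CENPF, CCNA2 and BUB1B no longer passed. With DESeq2 size factors those of NDC80 (-0.40, adjusted p = 0.0536) and PRC1 (-0.22, adjusted p = 0.0528) did not pass, though their values hardly moved. Those of NDC80 and PRC1 also failed with only the groups compared and with limma, and that of PRC1 without the low-count filter. That of BUB1B also failed with limma and without robust moderation. CENPE and KIF23 passed under every alternative that used all libraries, and KIF23 did not pass without NoDox 12 h replicate 1 or Dox 24 h replicate 3. The differences between 48 h and 24 h were -0.96 for CCNB1, -0.93 for HMMR, -0.85 for PLK1, -0.83 for KIF4A and -0.82 for KIF14.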

How the results depend on the processing

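At 48 h all 44 genes were lower in Dox under every alternative with all libraries (other scalings, no filter, no robust moderation, DESeq2, limma, only the groups compared, replicate block), and 42 to 44 were when 1 library was left out. Library totals changed the 12 h counts to 6 higher and 1 lower, turned BIRC5 at 12 h to 0.0098 (adjusted p = 0.912), and changed the difference between 24 h and 12 h to 0 higher and 19 lower; they moved the median of all features to 0.19 at 12 h, and the share of calls that were higher from 50.8% to 26.4% at 48 h and from 51.5% to 38% in NoDox 48 h against day 10. The lower count of the 24 h minus 12 h difference was 2 with DESeq2 size factors, with only the groups compared and with limma on the deposited values. Fitting only the groups compared gave 1 higher at 12 h, and 3 higher and 21 lower at 24 h. The calls over all features in these fits were 3069 higher and 3301 lower at 12 h, and 4293 and 4172 at 24 h.

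Leaving out 1 library gave 1 to 4 higher and 4 to 17 lower at 12 h (main 2 and 6), the 17 without Dox 12 h replicate 3, 15 without NoDox 12 h replicate 1 and the 4 higher without Dox 12 h replicate 1, with 1 higher without NoDox 12 h replicate 1 or 3 or Dox 12 h replicate 3; 1 higher and 10 to 12 lower at 24 h; 0 higher and 36 to 41 lower in NoDox 12 h against day 10; 0 to 1 higher and 4 to 8 lower in NoDox 24 h, the 0 without day 10 replicate 2 or NoDox 24 h replicate 1 or 3; 9 to 12 higher and 5 to 9 lower in NoDox 48 h, with 5, 7 and 6 lower without NoDox 48 h replicates 1, 2 and 3. For the differences of the Dox effect it gave 2 to 6 higher and 1 to 11 lower (24 h minus 12 h), the 11 without Dox 12 h replicate 1, 1 or 2 lower without NoDox 12 h replicate 1, Dox 12 h replicate 2 or 3 or any 24 h library, and 2 higher without NoDox 12 h replicate 3, and 28 to 35 lower (48 h minus 24 h).

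Replicate numbers were not treated as pairs, since the labels do not say how replicates were grown. Same-number residual correlations ran from -0.054 to 0.164, and in no comparison were all 3 above 0.1. Such values cannot exclude a pairing. With the replicate block the counts were 3 higher and 8 lower at 12 h, 1 and 15 at 24 h, 0 and 44 at 48 h, 0 and 41, 1 and 7, and 13 and 12 in the NoDox comparisons with day 10, 5 and 5 for 24 h minus 12 h, and 0 and 36 for 48 h minus 24 h.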
